A study of Mus musculus with 2 samples.

Results

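Translation initiation factors are the proteins that bring the ribosome, the initiator methionyl-tRNA and the capped mRNA together at a start codon. Their genes were taken from the deposited tables as the protein-coding genes whose symbols begin with Eif1 to Eif6, leaving out the Eif2ak kinases. This gave 53 genes out of 55466 listed, of which 48 had a mean of at least 1 FPKM over both libraries and are called expressed here. FPKM is the number of sequenced fragments scaled to gene length and library size. RNA came from MIN6, a mouse insulinoma cell line that makes insulin and stands in for pancreatic beta cells in culture. Cells of one library spent 1 h at 25 mM glucose, labelled hyperglycemic. Cells of the other spent 1 h at 2.8 mM, labelled hypoglycemic. Both had first been equilibrated for 0.5 h at 2.8 mM, and both were stimulated in KRBH, a bicarbonate-buffered salt solution. With 1 library at each concentration no value has a replicate error, no test was possible, and every difference below is one between 2 libraries.

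In the pathway these genes serve, eIF2 carries the initiator tRNA to the small ribosomal subunit as a complex with GTP, and eIF2B reloads eIF2 with GTP after each round. eIF3, eIF1 and eIF1A hold the small subunit ready for scanning, while eIF4F, made of the cap-binding protein eIF4E, the helicase eIF4A and the scaffold eIF4G, brings it to the mRNA. eIF5 and eIF5B then trigger GTP hydrolysis and join the large subunit. In beta cells glucose is known to raise protein synthesis, that of proinsulin above all, and the known control of the factors themselves includes phosphorylation of eIF2 alpha and of the eIF4E-binding proteins.

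Promoters of Eif4a1, Eif4e and Eif4g1, 1 gene for each eIF4F subunit, are shown because they hold the sequence CACGTG, an E-box. It is bound by Myc family factors and forms the core of the carbohydrate response element. Each stretch runs from 250 bases before to 50 bases after a RefSeq gene start on GRCm38.p6, with E-boxes in capitals. Where a gene had more than 1 such stretch, the first with an E-box was shown if any held one, so stretches were picked for the motif. A gene counted as holding a motif if any of its stretches did. The stretches of Eif4e and Eif4g1 lie inside the annotated bounds of these genes, which begin at chr3:138526179 and chr16:20668313. That of Eif5b, the gene with the largest difference between the libraries, follows them for contrast and holds no E-box.
Eif4a1, chr11:69672374-69672673, minus strand: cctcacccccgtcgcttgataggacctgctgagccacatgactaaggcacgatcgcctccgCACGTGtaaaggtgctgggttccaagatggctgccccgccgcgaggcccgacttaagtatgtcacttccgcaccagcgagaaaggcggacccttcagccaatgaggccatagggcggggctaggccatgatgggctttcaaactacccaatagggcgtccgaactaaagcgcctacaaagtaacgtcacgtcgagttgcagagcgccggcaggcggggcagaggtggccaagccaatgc
Eif4e, chr3:138527018-138527317, plus strand: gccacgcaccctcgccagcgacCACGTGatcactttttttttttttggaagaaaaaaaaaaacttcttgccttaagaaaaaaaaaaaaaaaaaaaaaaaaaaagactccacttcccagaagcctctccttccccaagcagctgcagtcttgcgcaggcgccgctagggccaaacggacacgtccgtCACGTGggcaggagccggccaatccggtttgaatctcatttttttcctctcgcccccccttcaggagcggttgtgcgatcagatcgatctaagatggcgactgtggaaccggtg
Eif4g1, chr16:20672477-20672776, plus strand: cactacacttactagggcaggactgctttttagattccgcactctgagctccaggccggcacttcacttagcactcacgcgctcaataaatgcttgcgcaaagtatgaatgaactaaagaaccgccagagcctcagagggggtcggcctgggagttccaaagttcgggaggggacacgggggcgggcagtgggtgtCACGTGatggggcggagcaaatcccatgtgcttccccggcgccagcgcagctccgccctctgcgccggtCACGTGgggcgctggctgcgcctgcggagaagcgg
Eif5b, chr1:37997760-37998059, plus strand: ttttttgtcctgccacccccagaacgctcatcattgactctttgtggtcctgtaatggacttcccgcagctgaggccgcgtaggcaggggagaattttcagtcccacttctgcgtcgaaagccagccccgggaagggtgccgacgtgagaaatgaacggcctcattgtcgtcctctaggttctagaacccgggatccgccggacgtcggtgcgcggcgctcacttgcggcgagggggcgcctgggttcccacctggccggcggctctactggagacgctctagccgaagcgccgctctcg

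Counting the gene start as 1 and the base before it as -1, the E-box of Eif4a1 starts at -189. Eif4e has one at -228 and another at -64, with 158 bases between them, and Eif4g1 has one at -54 and another at 16, with 63 bases between them. Eif5a2, not shown, also has 2, with 19 bases between them. Whether any of these E-boxes belongs to a carbohydrate response element was not tested. RefSeq promoters were given for 40 of the 53 genes, 38 of them expressed. CACGTG, which reads the same on both strands, occurred in 10 of these 38, or 26.3%. It occurred in 12.4% of 8765 expressed protein-coding genes and in 8.09% of all 27025 genes with promoters. Besides the eIF4F genes shown, those of Eif1b, Eif3a, Eif3f, Eif3k, Eif4h, Eif5a and Eif5a2 held it. Eif4a2 and Eif4g3, which also encode eIF4F subunits, were not among the genes found to hold it, though some members had no promoter given. Among 7 other motifs searched on both strands, CCGGAAG, which ETS factors bind, was found in 39.5% of expressed initiation factor genes, against 21.6% of expressed protein-coding genes. TGACGTCA, the cAMP response element, was found in 0 of the 38 against 4.02%, and the exact YY1 string searched in 0 against 2.7%. The YY1 and NRF1 motifs were each searched as a single exact string, so sites differing from it at any base were not counted. The 0 for YY1 therefore does not show that these promoters lack similar sites. The exact NRF1 string was found in 2.63% against 2.52%, and TGATGNAA, the amino acid response element, also in 2.63%, against 2.72%. CCAAT was found in 34.2% against 44.1%, and TATAAA in 7.89% against 7.9%. The genes with an E-box had a median level over both libraries of 209 FPKM, against 84.0 FPKM in those without. Their median log2 change between the libraries was -0.01, against 0.01 in those without. A match of letters shows no binding, and no test was made. The groups of genes compared were matched neither for level nor for the number of stretches per gene.

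Markers of the beta cell were high in both libraries. Of 9 beta-cell markers 8 were expressed, with Ins2 at 50846 FPKM at 25 mM against 60328 FPKM at 2.8 mM. The 9 markers summed to 63733 FPKM at 25 mM against 73501 FPKM at 2.8 mM, and the part of this difference in the results was not tested. The exception was the glucose transporter gene Slc2a2 at 0.653 FPKM at 25 mM against 0.469 FPKM at 2.8 mM. Of 17 markers of other islet, acinar, ductal, stromal, endothelial and white blood cells 4 were expressed, Gcg, Spp1, Cela1 and Tagln, with Gcg, the glucagon gene, at 2764 FPKM at 25 mM against 2804 FPKM at 2.8 mM, while the endothelial and leukocyte markers Pecam1, Cdh5 and Ptprc were listed at 0. The steps between low FPKM values corresponded to about 16660000 fragments at 25 mM and 19570000 at 2.8 mM.

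Initiation factor mRNAs were abundant and stood at nearly the same level at both glucose concentrations. None of the 48 expressed genes was 1.5-fold or more apart in either direction, where 0.857% of 10963 expressed protein-coding genes were at least 1.5-fold higher at 25 mM and 1.4% at least 1.5-fold lower. With 48 genes, a count of 0 is close to those shares and is not particular to these genes. The median log2 change was 0.00 (-0.0031 before rounding), against -0.02 for expressed protein-coding genes. It was computed after adding a pseudocount of 1 to both FPKM values, with 25 mM over 2.8 mM, which makes the changes of genes with low values look smaller than they are. FPKM is relative to library size, so a difference in cell number or in total RNA per cell would not show in it. At 25 mM 24 genes were higher and 24 lower, where 45.3% of expressed protein-coding genes were higher and 54.7% lower. With both libraries rescaled to the same summed FPKM the split became 36 and 12, where 62.4% of expressed protein-coding genes were higher. It became 30 and 18, where 56.2% were higher, when that sum left out mitochondrial and the 10 most abundant genes. The direction of small differences therefore depends on the scaling, and 12 genes changed sign under the first of these. Spread between the libraries was wider among low genes, so it was compared at matched level, as a robust SD of the log2 changes (the scaled median absolute deviation). Among genes with a mean of 100 to 300 FPKM it was 0.127 for 18 initiation factor genes, against 0.0931 for 758 protein-coding genes. Between 30 and 100 FPKM it was 0.102 for 20 initiation factor genes, against 0.114 for 2516 protein-coding genes. For the 5 initiation factor genes at 300 FPKM or more it was 0.0272, against 0.102 for 292 protein-coding genes, and for the 3 between 10 and 30 FPKM it was 0.0321, against 0.139 for 3530. The initiation factor genes were thus wider than other genes in one of these ranges and narrower in the others, 2 of which hold few of them, and no test was made. On the log2 scale the libraries had a Pearson's r of 0.997 across the 48 genes and of 0.992 across expressed protein-coding genes, which are not independent replicates. In level, 23 of the 48 lay in the top 10% of expressed protein-coding genes and 45 above their median. All 53 together made up 0.936% of the summed FPKM at 25 mM and 0.901% at 2.8 mM.

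**Figure D1:**
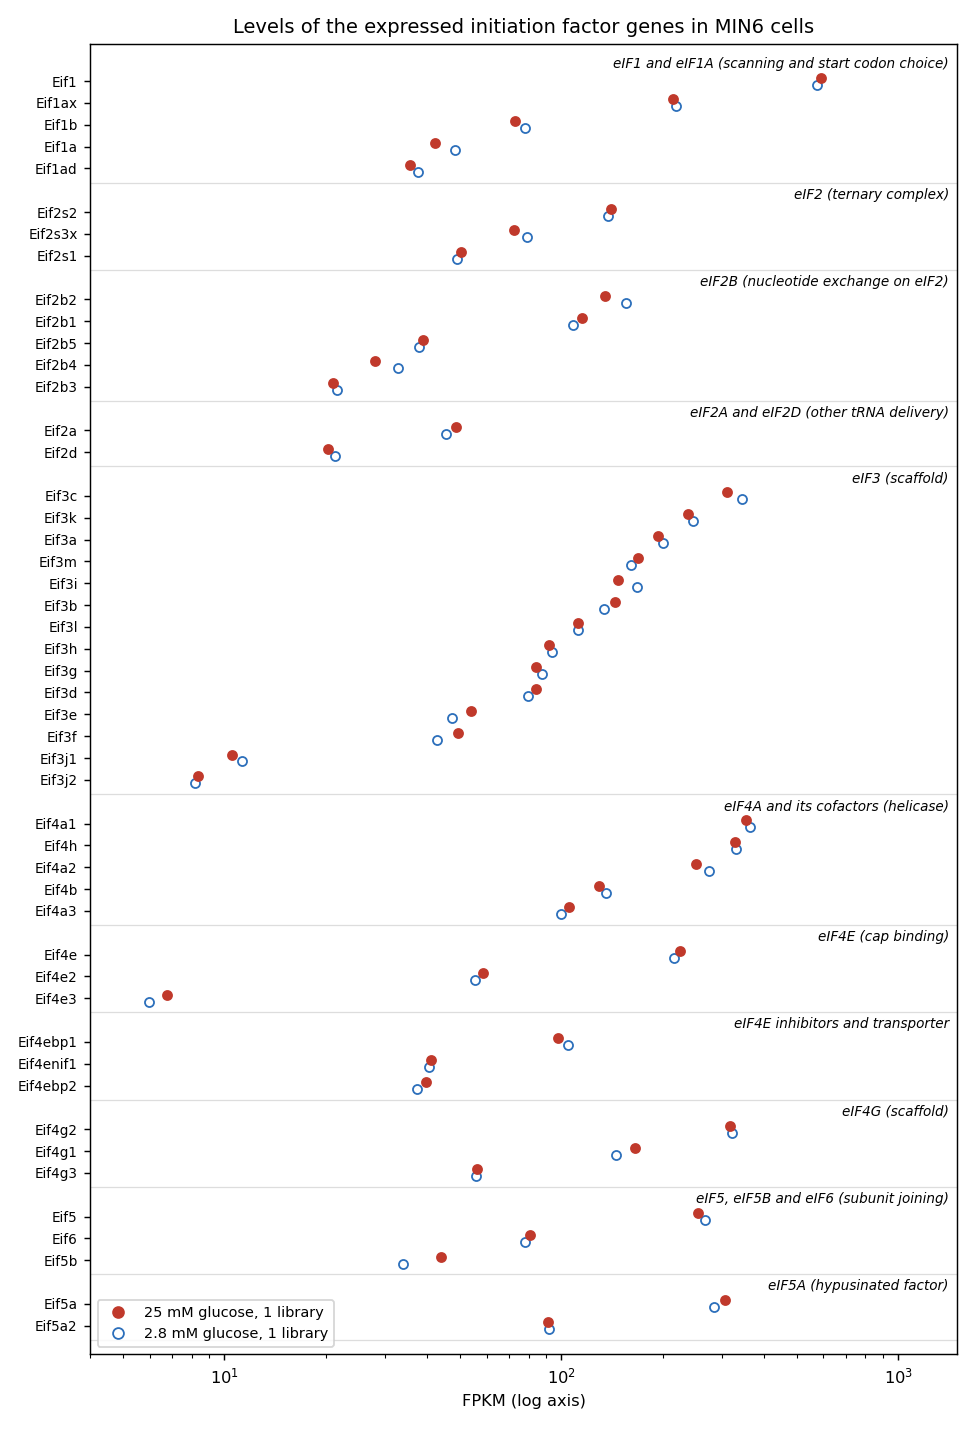
FPKM on a log axis of the 48 expressed initiation factor genes, grouped by complex and ordered by mean level, with filled points for the 25 mM library and open points for the 2.8 mM library. Levels span from Eif4e3, at 6.74 FPKM at 25 mM against 5.96 FPKM at 2.8 mM, to Eif1, at 589 FPKM at 25 mM against 575 FPKM at 2.8 mM, and the points of a gene lie close together throughout.

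**Figure D2:**
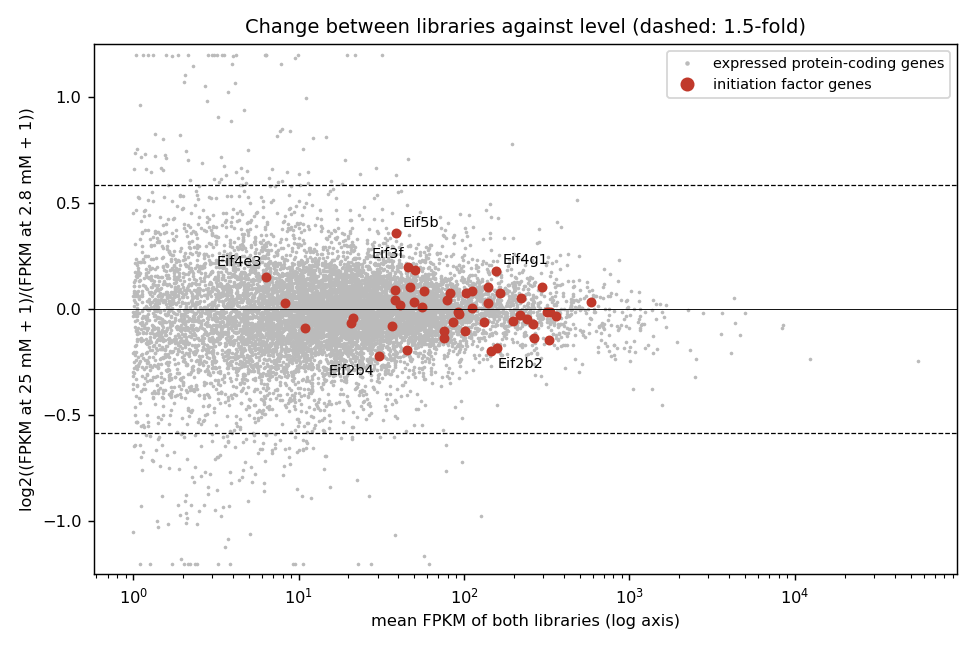
Log2 change between the libraries, 25 mM over 2.8 mM with a pseudocount of 1, against mean FPKM on a log axis for expressed protein-coding genes (grey; 36 beyond 1.2 are drawn at the edge) and the 48 initiation factor genes (red). All 48 lie between the dashed lines at 1.5-fold, with Eif5b highest at 0.36 and Eif2b4 lowest at -0.22.

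The small factors that govern scanning and the choice of start codon include the most abundant member. Eif1, whose product rejects wrong start codons, was at 589 FPKM at 25 mM against 575 FPKM at 2.8 mM, and its paralogue Eif1b at 72.8 FPKM at 25 mM against 78.2 FPKM at 2.8 mM. Eif1 thus made up 89.0% of the pair's FPKM at 25 mM and 88.0% at 2.8 mM. The first 60 coding bases of the pair are given to show how far their reads can be told apart, with capitals at the 5 positions that differ.
Eif1, chr11:100320130-100320694, plus strand, spanning an intron: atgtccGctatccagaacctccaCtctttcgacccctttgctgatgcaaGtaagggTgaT
Eif1b, chr9:120492811-120494135, plus strand, spanning an intron: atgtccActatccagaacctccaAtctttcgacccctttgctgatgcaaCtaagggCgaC
Over their 342 coding bases they were 81.3% identical, and the longest identical run was 25 bases. However, 37.2% of the 31-base words of the longest Eif1 transcript occur in transcripts of other annotated genes, which makes its level less certain. Eif1ax, for the scanning factor eIF1A encoded on the X chromosome, was at 215 FPKM at 25 mM against 219 FPKM at 2.8 mM. Its autosomal paralogue Eif1a stood at 42.1 FPKM at 25 mM against 48.2 FPKM at 2.8 mM, a log2 change of -0.19 and the third lowest of all members. Eif1ad, named for an eIF1A domain, was at 35.5 FPKM at 25 mM against 37.5 FPKM at 2.8 mM. Of these 5 genes 4 were lower at 25 mM, or 3 under either rescaling, and the median log2 change was -0.08. Of expressed protein-coding genes 54.7% were lower as deposited, and 37.6% and 43.8% under the rescalings.

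The mRNAs for the subunits of the eIF2 trimer had unequal FPKM values. Eif2s2, for the beta subunit, was at 140 FPKM at 25 mM against 138 FPKM at 2.8 mM, and Eif2s3x, for the GTP-binding gamma subunit, at 72.2 FPKM at 25 mM against 79.4 FPKM at 2.8 mM. Eif2s1, for the alpha subunit on which stress kinases act, was the lowest at 50.4 FPKM at 25 mM against 49.2 FPKM at 2.8 mM. The beta mRNA was thus 2.78 times the alpha mRNA at 25 mM and 2.80 times at 2.8 mM. Eif2s3y, the Y-linked gamma gene, was listed at 0 in both libraries. Of the 31-base words of Eif2s3x 37.2% occur in other genes, mostly the pseudogene Gm2223, which makes its level less certain.

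The eIF2B subunit genes included those with the 2 lowest log2 changes of the 48 genes. Eif2b2, for the regulatory beta subunit, was at 135 FPKM at 25 mM against 155 FPKM at 2.8 mM, a log2 change of -0.20. Eif2b4, for delta, was at 28.05 FPKM at 25 mM against 32.9 FPKM at 2.8 mM, with the lowest log2 change at -0.22. Eif2b1, for the alpha subunit that senses phosphorylated eIF2, lay on the other side at 115 FPKM at 25 mM against 109 FPKM at 2.8 mM. The catalytic subunits hardly differed. Eif2b5, for epsilon, was at 38.9 FPKM at 25 mM against 37.7 FPKM at 2.8 mM, and Eif2b3, for gamma, at 21.0 FPKM at 25 mM against 21.6 FPKM at 2.8 mM. The highest subunit mRNA, Eif2b2, was 6.45 times the lowest, Eif2b3, at 25 mM and 7.18 times at 2.8 mM. The mean over eIF2B subunits was 0.772 of the mean over the 3 expressed eIF2 subunits at 25 mM and 0.803 at 2.8 mM. Eif2a and Eif2d encode single proteins that can deliver tRNA without eIF2, and their log2 changes were 0.10 and -0.06. Eif2a lay at 48.8 FPKM at 25 mM against 45.4 FPKM at 2.8 mM, and Eif2d at 20.3 FPKM at 25 mM against 21.3 FPKM at 2.8 mM.

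eIF3, the largest initiation factor, was represented by 14 genes, 7 higher and 7 lower at 25 mM, where 45.3% of expressed protein-coding genes were higher. Its median log2 change was -0.01 as deposited and 0.06 after rescaling to the same sum. Under that rescaling 11 were higher, where 62.4% of expressed protein-coding genes were. Eif3a and Eif3c encode the subunits around which the core of eIF3 forms. Eif3c was the highest subunit mRNA at 311 FPKM at 25 mM against 344 FPKM at 2.8 mM, with a log2 change of -0.15, and Eif3a was at 194 FPKM at 25 mM against 201 FPKM at 2.8 mM. The other core genes ranged widely. Eif3k was at 238 FPKM at 25 mM against 246 FPKM at 2.8 mM, and Eif3m at 169 FPKM at 25 mM against 161 FPKM at 2.8 mM. Eif3l was at 112 FPKM in both libraries, and Eif3h at 92.1 FPKM at 25 mM against 93.7 FPKM at 2.8 mM. Eif3e and Eif3f had the lowest levels of the core genes and the highest log2 changes. Eif3e was at 53.8 FPKM at 25 mM against 47.3 FPKM at 2.8 mM (log2 change 0.18), and Eif3f at 49.2 FPKM at 25 mM against 42.7 FPKM at 2.8 mM (0.20). With Eif3c lower and Eif3f higher at 25 mM, the ratio of the highest to the lowest of these subunit mRNAs was 6.32 at 25 mM, against 8.06 at 2.8 mM.

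The subunits attached around that core had no common direction. Eif3b, for the scaffold of the mobile module, was at 144 FPKM at 25 mM against 134 FPKM at 2.8 mM, whereas its partner Eif3i stood at 148 FPKM at 25 mM against 168 FPKM at 2.8 mM, with a log2 change of -0.18. Eif3g, for the RNA-binding subunit of the same module, was at 84.0 FPKM at 25 mM against 87.7 FPKM at 2.8 mM. Eif3d, for a subunit that can itself bind the cap, was at 84.3 FPKM at 25 mM against 79.9 FPKM at 2.8 mM. The loosely bound subunit eIF3j has 2 genes in the mouse, and both were low. Eif3j1 was at 10.5 FPKM at 25 mM against 11.3 FPKM at 2.8 mM. Eif3j2 was at 8.36 FPKM at 25 mM against 8.18 FPKM at 2.8 mM. Eif3j2 shares 94.9% of its 31-base words with other genes, mostly Eif3j1, so how their reads were divided cannot be checked. Eif3d, Eif3h and Eif3m also share 43.5%, 37.4% and 24.0% with other annotated genes.

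Of the eIF4F genes the helicase mRNAs were the most abundant. Eif4a1 (ENSMUSG00000059796, chr11:69666936-69672423) was at 355 FPKM at 25 mM against 363 FPKM at 2.8 mM, and Eif4a2 at 251 FPKM at 25 mM against 275 FPKM at 2.8 mM, a log2 change of -0.14. Eif4a3, whose product belongs mainly to the exon junction complex, was at 106 FPKM at 25 mM against 100 FPKM at 2.8 mM. Of the 31-base words of Eif4a2 and Eif4a3, 20.5% and 44.8% occur in other genes, which makes their levels less certain. Eif4a1 made up 49.9% of the summed FPKM of Eif4a1, Eif4a2 and Eif4a3 at 25 mM and 49.1% at 2.8 mM. These shares are bound up with a processed pseudogene, Eif4a-ps4 (ENSMUSG00000101188, chr1:60703932-60705149), which was listed at 209 FPKM at 25 mM against 215 FPKM at 2.8 mM. Over 1218 bases it differs from the Eif4a1 coding sequence at 1 position, in capitals at the end of the 60 bases below, and the longest identical run is 684 bases.
Eif4a1, chr11:69668734-69669117, minus strand, spanning an intron: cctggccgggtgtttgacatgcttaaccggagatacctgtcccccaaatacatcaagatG
Eif4a-ps4, chr1:60704406-60704465, plus strand: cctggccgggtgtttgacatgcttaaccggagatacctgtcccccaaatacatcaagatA
Fragments from the coding part of Eif4a1 therefore cannot be told apart from those of the pseudogene except where they cover that base or extend into untranslated sequence. With the pseudogene's FPKM added, an alternative chosen after the data were seen, the share of Eif4a1 was 61.3% at 25 mM and 60.6% at 2.8 mM. FPKM is scaled to length, and the longest Eif4a1 transcript has 3167 bases against 1218 for the pseudogene. Their FPKM values therefore do not add as fragments would, and these raised shares may be too high. The helicase cofactor gene Eif4h was at 328 FPKM at 25 mM against 331 FPKM at 2.8 mM, and Eif4b, whose product is a substrate of S6 kinase, at 130 FPKM at 25 mM against 135 FPKM at 2.8 mM. Of these 5 genes 4 were lower at 25 mM as deposited, where 54.7% of expressed protein-coding genes were. After rescaling to the same sum 4 were instead higher, where 62.4% of expressed protein-coding genes were.

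Among cap-binding proteins, Eif4e was at 225 FPKM at 25 mM against 217 FPKM at 2.8 mM. Eif4e2, for the repressive homologue 4EHP, was at 58.7 FPKM at 25 mM against 55.3 FPKM at 2.8 mM, and Eif4e3 at 6.74 FPKM at 25 mM against 5.96 FPKM at 2.8 mM. All 3 expressed genes were higher at 25 mM, by a median log2 change of 0.08 (0.10 to 0.15 under the other scalings). Of expressed protein-coding genes 45.3% were higher as deposited and 50% to 62.4% under those scalings, and no test was made. Eif4e kept 77.5% of the summed FPKM of the 3 genes at 25 mM and 77.9% at 2.8 mM. Eif4e3 has a single annotated transcript, from which 252 fragments at 25 mM and 260 at 2.8 mM were recovered. Its log2 ratio without a pseudocount was 0.18, with an exact 95% interval of -0.08 to 0.43 that covers counting error only. This difference was not detectable at this depth. The oocyte-type gene Eif4e1b was listed at 0 in both libraries.

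The scaffold gene Eif4g1 (ENSMUSG00000045983, chr16:20668313-20692884) was at 165 FPKM at 25 mM against 146 FPKM at 2.8 mM, a log2 change of 0.18. Its paralogue Eif4g3 hardly differed, at 56.0 FPKM at 25 mM against 55.7 FPKM at 2.8 mM. Eif4g2, for the homologue DAP5 that lacks the eIF4E site and serves cap-independent initiation, was the most abundant at 317 FPKM at 25 mM against 320 FPKM at 2.8 mM. The share of Eif4g1 within the 3 was accordingly 30.7% at 25 mM and 27.9% at 2.8 mM. Eif4g1 shares under 1% of its 31-base words with other genes.

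The eIF4E-binding proteins, which block the assembly of eIF4F until mTORC1 phosphorylates them, differed slightly in makeup between the libraries. Eif4ebp1, known in mouse beta cells as a target of the stress factor ATF4, was at 97.6 FPKM at 25 mM against 105 FPKM at 2.8 mM. Eif4ebp2 was at 39.7 FPKM at 25 mM against 37.3 FPKM at 2.8 mM. Eif4ebp3 was under the filter at 0.791 FPKM at 25 mM against 0.614 FPKM at 2.8 mM, and 66.4% of its 31-base words occur in another gene. Eif4ebp1 made up 70.7% of their sum at 25 mM and 73.5% at 2.8 mM. Their summed FPKM was 0.614 of that of Eif4e at 25 mM and 0.660 at 2.8 mM. Eif4enif1, for a protein that carries eIF4E into the nucleus, was at 41.1 FPKM at 25 mM against 40.6 FPKM at 2.8 mM.

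**Figure D3:**
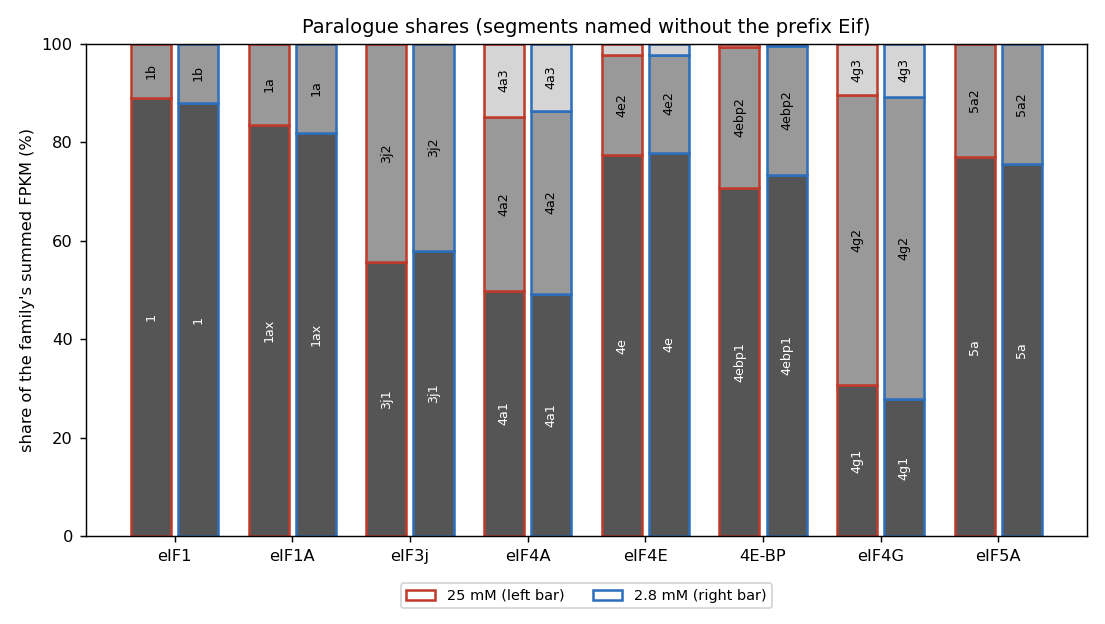
Share of each paralogue in the summed FPKM of its family, in percent, with the 25 mM library in the left and the 2.8 mM library in the right bar of each pair. The largest differences between bars are those of Eif4ebp1, at 70.7% at 25 mM and 73.5% at 2.8 mM, and Eif4g1, at 30.7% at 25 mM and 27.9% at 2.8 mM.

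Of the factors that complete initiation, Eif5b had the largest difference of any member. Eif5b, for the GTPase that joins the large subunit (ENSMUSG00000026083, chr1:37998010-38055579), was at 43.9 FPKM at 25 mM against 33.97 FPKM at 2.8 mM. Its log2 change of 0.36 was the highest of the 48 genes and the only one of 0.32 or more in either direction. At that size 3.48% of expressed protein-coding genes were higher and 5.56% lower. If all its fragments came from its longest transcript, the values correspond to about 5499 fragments at 25 mM and 4991 at 2.8 mM. The 3′ end of Eif5b overlaps that of Rev1, a DNA polymerase gene on the opposite strand, by 2794 bases, and 20.3% of its 31-base words occur in other genes, mostly in Rev1. Rev1 differed the other way, at 11.2 FPKM at 25 mM against 17.2 FPKM at 2.8 mM. The sources used here do not say whether strand was used in counting, and the part of this overlap in the difference was not tested. Eif5, for the protein that activates the GTPase of eIF2, was at 255 FPKM at 25 mM against 267 FPKM at 2.8 mM. Eif6, whose product keeps the ribosomal subunits apart, was at 80.6 FPKM at 25 mM against 78.2 FPKM at 2.8 mM.

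eIF5A, which helps ribosomes through slow peptide bonds, needs hypusine, an amino acid made from 1 of its lysines and found in no other protein. The 57 coding bases around that lysine codon, the codon 50 shown in capitals, are given for both genes, since their products share the site while their mRNAs can be told apart.
Eif5a, chr11:69918010-69919195, minus strand, spanning an intron: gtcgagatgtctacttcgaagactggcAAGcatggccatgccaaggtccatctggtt
Eif5a2, chr3:28782172-28782739, plus strand, spanning an intron: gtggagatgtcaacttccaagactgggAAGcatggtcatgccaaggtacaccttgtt
These stretches differ at 8 positions, and the aligned coding sequences were 73.2% identical with no shared run longer than 14 bases. Eif5a was at 306 FPKM at 25 mM against 284 FPKM at 2.8 mM, and Eif5a2 at 91.2 FPKM at 25 mM against 92.0 FPKM at 2.8 mM. Eif5a2, better known from germline, brain and tumours, thus made up 23.0% of the pair at 25 mM and 24.5% at 2.8 mM. For Eif5a2, with a single transcript, 7226 fragments at 25 mM and 8527 at 2.8 mM were recovered. The log2 ratio was -0.01 with an exact 95% interval of -0.06 to 0.03 for counting error. The unexpressed members Eif4a3l1 (0.0616 FPKM at 25 mM and listed at 0 at 2.8 mM) and Eif4a3l2 (0.273 FPKM at 25 mM against 0.284 FPKM at 2.8 mM) are named as Eif4a3-like, with 61.8% and 76.5% of their 31-base words in other genes.

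Enzymes and partners that act on initiation factors were compared in the same way, for 55 genes in 9 lists, all of them expressed, with a median log2 change of 0.00. Of the kinases that phosphorylate eIF2 alpha, Eif2ak3, for the endoplasmic reticulum sensor PERK, was at 8.73 FPKM at 25 mM against 10.2 FPKM at 2.8 mM. Eif2ak1, for the heme-regulated kinase, was at 20.2 FPKM at 25 mM against 18.7 FPKM at 2.8 mM. Eif2ak2, for the RNA-activated kinase PKR, was at 9.97 FPKM at 25 mM against 9.96 FPKM at 2.8 mM. Eif2ak4, for the amino acid sensor GCN2, was the lowest of the 4 at 2.64 FPKM at 25 mM against 2.82 FPKM at 2.8 mM. Ppp1r15a, for the inducible subunit GADD34 of the opposing phosphatase, stood at 18.8 FPKM at 25 mM against 22.3 FPKM at 2.8 mM, with a log2 change of -0.24. The constitutive subunit gene Ppp1r15b was at 46.4 FPKM at 25 mM against 46.6 FPKM at 2.8 mM. Catalytic subunits of that phosphatase showed no common direction, with Ppp1cb at 69.5 FPKM at 25 mM against 65.8 FPKM at 2.8 mM. Ppp1cc was at 221 FPKM at 25 mM against 210 FPKM at 2.8 mM, with 57.1% of its 31-base words in other genes, and Ppp1ca at 10.8 FPKM at 25 mM against 12.1 FPKM at 2.8 mM.

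The largest differences among related genes were those of Gigyf2 and Gigyf1, which encode the partners of the repressive cap-binding protein made from Eif4e2. Gigyf2 was at 27.9 FPKM at 25 mM against 38.7 FPKM at 2.8 mM (log2 change -0.46), and Gigyf1 at 30.9 FPKM at 25 mM against 42.6 FPKM at 2.8 mM (-0.45). They were the only 2 of the 55 related genes lower by a log2 change of 0.32 or more. That size was reached by 5.56% of expressed protein-coding genes, so the count is no higher than that share. Both share under 1% of their 31-base words with other genes. Pdcd4, for an inhibitor of eIF4A, had the highest log2 change of that list, 0.12, at 85.1 FPKM at 25 mM against 78.3 FPKM at 2.8 mM.

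Genes of mTORC1 and of kinases that act on initiation factors had a median log2 change of -0.16, with 8 of 11 lower at 25 mM as deposited, where 54.7% of expressed protein-coding genes were lower. Under the 3 other scalings the median was between -0.14 and -0.09 and 6 of 11 were lower, where 37.6% to 50% of expressed protein-coding genes were. By log2 change they ran from Tsc1, for an upstream inhibitor, at 6.38 FPKM at 25 mM against 7.73 FPKM at 2.8 mM, to Mtor itself at 21.9 FPKM at 25 mM against 19.8 FPKM at 2.8 mM. Of 9 genes listed as elongation genes 7 were higher at 25 mM, where 45.3% of expressed protein-coding genes were. Under the other scalings 7 or 8 were higher, where 50% to 62.4% were. The 7 higher as deposited include Eef2k (log2 change 0.14), for an inhibitory kinase of eEF2, and Eef1e1 (0.02). Neither of these encodes an elongation factor. Lowest in log2 change was Eef1d at 96.4 FPKM at 25 mM against 103 FPKM at 2.8 mM. Highest in log2 change was Eef1a2, for the neuronal and muscle form of the tRNA carrier, at 463 FPKM at 25 mM against 386 FPKM at 2.8 mM (log2 change 0.26). Poly(A)-binding protein and partner genes had 4 of 5 higher, or 5 of 5 after rescaling to the same sum, to be read against the same shares. Pabpc1, for the main cytoplasmic form, was at 276 FPKM at 25 mM against 236 FPKM at 2.8 mM (0.23) and Paip2b, for an inhibitor, at 58.0 FPKM at 25 mM against 59.8 FPKM at 2.8 mM (-0.04). Among termination and recycling genes Denr, for a partner of MCTS1 in reinitiation, was at 116 FPKM at 25 mM against 89.6 FPKM at 2.8 mM (0.36), and Mcts1 at 39.4 FPKM at 25 mM against 42.8 FPKM at 2.8 mM (-0.12). Denr was the only one of the 55 related genes higher by 0.32 or more, a size reached by 3.48% of expressed protein-coding genes, so the count is no higher than that share. Both hypusine enzymes were higher, also under the other scalings, where 45.3% of expressed protein-coding genes were higher as deposited and 50% to 62.4% under those scalings. Dhps was at 21.4 FPKM at 25 mM against 18.6 FPKM at 2.8 mM. Dohh was at 103 FPKM at 25 mM against 93.9 FPKM at 2.8 mM, with 66.7% of its 31-base words in other genes. The mitochondrial initiation factor genes differed in sign, with Mtif2 at 22.0 FPKM at 25 mM against 19.4 FPKM at 2.8 mM and Mtif3 at 17.7 FPKM at 25 mM against 18.9 FPKM at 2.8 mM.

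**Figure D4:**
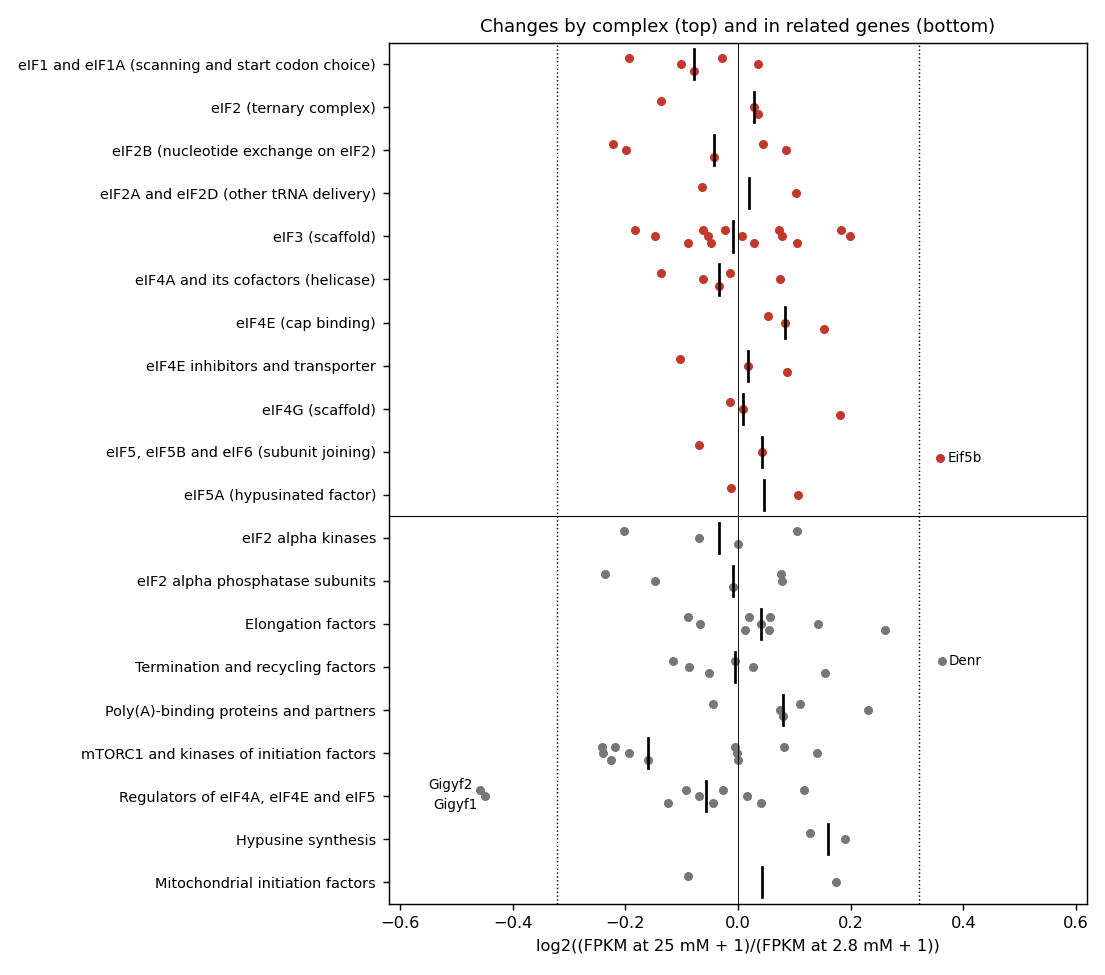
Log2 change, 25 mM over 2.8 mM with a pseudocount of 1, of each expressed initiation factor gene by complex (red) and of genes acting with them (grey). Short bars mark medians and dotted lines log2 changes of 0.32 either way. Eif5b at 0.36, Denr at 0.36, Gigyf1 at -0.45 and Gigyf2 at -0.46 lie outside the dotted lines.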

How the data were processed

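RNA sequencing values of MIN6 cells, 1 library at 25 mM and 1 at 2.8 mM glucose, were used as the authors deposited them, as FPKM per gene, per the file headers. The submitters' processing notes name HISAT2, Cuffdiff and GRCm38. The sources used here give no versions, annotation release, strandedness or pooling. In each file 1 empty line was not used.

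The initiation factor genes, the related gene lists and the alternatives were chosen with earlier results of these data known. Every initiation factor gene could be named. Of the related lists, the highest and lowest changes and all eIF2 alpha kinase and phosphatase genes were named, with Eef2k and Eef1e1 named besides. Log2 changes used log2(FPKM + 1), and a mean of at least 1 FPKM counted as expressed. Groups came from the treatment label, and no test was possible with 1 library per group.

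Gene positions and transcripts came from GENCODE M21 for GRCm38, which held 99.4% of gene identifiers. Words of 31 bases in the longest transcript were sought, on both strands, in transcripts of other genes. Fragments were recovered from the steps of low FPKM values in genes with 1 transcript of at least 800 nt. Within 0.1 of a whole fragment were 94.1% of 2357 values at 25 mM and 94.8% of 2584 at 2.8 mM. Exact Clopper-Pearson intervals were given for members with 1 transcript of at least 500 nt that few genes copy. They cover counting error only. The steps were tested on simulated data. Promoters are from RefSeq. Alternatives were pseudocounts of 0.1 and 5, no filter or a filter of 5 FPKM, thresholds of 0.32 on the log2 scale and 2-fold, 3 scalings, and leaving out genes sharing 20% or more of their words. Motifs, coding stretches and the Eif4a-ps4 alternative were chosen after the data were seen. Computations ran in Python 3.11.15 with SciPy 1.17.1, NumPy 2.4.6 and pandas 2.3.3, and plots in matplotlib 3.10.9.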

Additional observations from a re-analysis of the deposited data

How the results depend on the processing

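With 1 library per glucose concentration, no result here separates glucose from library, and differences of the size seen in most initiation factor genes depend on scaling. Rescaling both libraries to the same sum raised the median of every complex. It moved the median of the 48 genes to 0.064, of the eIF2 genes to 0.095 and of the eIF5A genes to 0.11, and left 12 genes lower in place of 24. The eIF4E median likewise rose from 0.084 to 0.15 and the eIF3 median from -0.0087 to 0.058. The eIF2 median was 0.070 when mitochondrial and the 10 most abundant genes were left out of the sum and 0.045 after centring. The median of expressed protein-coding genes moved with these settings, to 0.046, 0.023 and 0.00, as their construction requires. At a threshold of 0.32 on the log2 scale 1 gene was higher (Eif5b). With the FPKM of Eif4a-ps4 added without regard to its length, Eif4a1 made up 61.3% of its family at 25 mM and 60.6% at 2.8 mM. Under both pseudocounts and the 3 scalings no member reached 1.5-fold, and the highest change, that of Eif5b, ran from 0.33 to 0.43. Leaving out the 11 genes that share 20% or more of their words, Eif5b among them, gave 18 higher and 19 lower, with a median of -0.01. For the paralogue shares, leaving out such genes gave no value for Eif1, Eif3j1 and Eif4a1, which are themselves among them, and 71.1% at 25 mM and 73.8% at 2.8 mM for Eif4ebp1. No paired analysis was possible because each concentration had a single library.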

Other observations

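Processed copies of initiation factor genes were listed in both libraries, outside the 53 protein-coding genes. Of 10 processed pseudogenes with an Eif symbol, Eif4a-ps4 was the highest at 209 FPKM at 25 mM against 215 FPKM at 2.8 mM. Eif3s6-ps2, a copy of Eif3e, was at 6.56 FPKM at 25 mM against 5.21 FPKM at 2.8 mM, and Eif1-ps1, a copy of Eif1, at 3.84 FPKM at 25 mM against 1.54 FPKM at 2.8 mM. Eif1-ps2 and Eif5al3-ps, at 0.704 and 1.32 FPKM at 25 mM, were listed at 0 at 2.8 mM, and the other 5 were at 0 in both libraries. Eif1-ps1, Eif1-ps2 and Eif5al3-ps are short, at 330, 339 and 447 bases. Their FPKM values therefore rest on few fragments, and their differences between the libraries are uncertain. Among pseudogenes without such a symbol, Gm9892, which shares sequence with Eif2s2, was at 40.9 FPKM at 25 mM against 38.9 FPKM at 2.8 mM. Gm2999, which shares sequence with Eif4a2, was at 18.7 FPKM at 25 mM against 18.03 FPKM at 2.8 mM, and Gm7327, which shares sequence with Eif4e, at 16.4 FPKM at 25 mM against 12.01 FPKM at 2.8 mM. Whether these values are transcripts of the copies or reads of the parent genes was not tested.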
